A study of Arabidopsis thaliana with 28 samples.

Results

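The genes described here are 9 transcription factor genes that divide the *Arabidopsis* leaf into an upper (adaxial) and a lower (abaxial) side: *AS1* and *AS2* (named after the asymmetric leaves of their mutants), *REVOLUTA* (*REV*), *PHABULOSA* (*PHB*), *PHAVOLUTA* (*PHV*), *KANADI1* (*KAN1*), *KAN2*, *FILAMENTOUS FLOWER* (*FIL*, also *ABNORMAL FLORAL ORGANS*) and *YABBY3* (*YAB3*). They were chosen by locus identifier for their known role in leaf polarity, and all 9 were found among the 27371 genes measured. The study asked how the zinc finger transcription factor IDD4 connects growth with immunity, and it placed *REV*, *KAN*, *PHB* and *ABNORMAL FLORAL ORGANS* among the genes that IDD4 binds. RNA of whole 14-day-old Col-0 seedlings, grown on sugar-free medium in long days, was sequenced in 2 experiments. In the flg22 experiment, wild type (WT) and the T-DNA insertion line Salk_148352C (*idd4*) were untreated or received 1 µM flg22 for 1 h, with 3 samples per group in the labels; flg22 is the flagellin peptide that starts pattern-triggered immunity. In the expressor experiment, a second WT was set beside 3 transgenic lines in Col-0, each driven by the broadly active *UBI10* promoter, with 2 samples per group in the labels, where the study's methods give 3 replicates. *IDD4ox* carries IDD4 fused to GFP, and *IDD4-AA* and *IDD4-DD* carry RFP fusions in which Ser-73 and Thr-130 are replaced by alanine or by aspartic acid. No treatment is named for the expressor lines, which also still hold their own *IDD4* gene, and the *idd4* genotype is a single insertion line.

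Each gene has 1 value per group in FPKM, the number of fragments scaled to transcript length and to the mapped fragments of the library, which the authors combined over replicates. No difference given here therefore has an error or a test, the depth of the libraries is unknown, and all comparisons are descriptions of these group values. The values of both experiments were normalised separately, so a level in one need not be on the scale of the other. A change is the difference of log2(FPKM + 1), which understates the change of a gene with a low level. The genes compared are those that reached 1 FPKM in one or both groups, and a gene counts as different when FPKM + 1 differs at least 1.5-fold.

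In a leaf primordium the HD-ZIP III proteins REV, PHB and PHV specify the adaxial side, while KANADI and YABBY proteins act on the abaxial side. The microRNAs miR165 and miR166 clear HD-ZIP III transcripts from abaxial cells, and HD-ZIP III and KANADI genes restrain each other. AS1, a MYB protein, works in a complex with the LBD protein AS2 to keep meristem genes of the KNOX class silent in leaves and to favour adaxial fate. A blade grows out where both sides meet, so these genes are most active in young, dividing leaf tissue, which is a small share of a whole seedling. In bulk RNA of this kind, fewer cells of a type and less RNA per cell cannot be told apart.

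The targeted gene was looked at first. Untreated, *IDD4* stood at 14.5 FPKM in WT against 23.0 FPKM in the group labelled *idd4*. After flg22 the same groups gave 5.69 and 22.4 FPKM. The *IDD4* transcript was thus higher where an insertion in the gene is labelled, so this group is called by its label throughout, and FPKM of the whole gene does not show whether these transcripts are intact. The study places the insertion in the first exon, evaluated the transcript by RT-PCR and describes the line as a true knockout. It also reports that *IDD4* under its own promoter restored WT growth and bacterial titers in that line. The expressor lines went with their labels, with *IDD4* at 9.23 FPKM in their WT, 197 FPKM in *IDD4ox*, 71.6 FPKM in *IDD4-AA* and 198 FPKM in *IDD4-DD*. As deposited, 21642 gene identifiers were out of alphabetical order while the values were not, and the identifiers were sorted before use. In the order as given, *IDD4* would stand at 31.7 FPKM in WT and 20.8 FPKM in *IDD4ox*, and 5 of the 9 polarity genes would take the values of other genes.

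The sequence that sets the HD-ZIP III members apart from the others is their microRNA site, shown here with the microRNAs that pair with it. The mature sequences come from RefSeq (TAIR10.1), where 2 genes encode the first and 7 genes the second. The capitals mark the seed, bases 2 to 8 from the 5′ end, which both share.
miR165: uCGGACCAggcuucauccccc
miR166: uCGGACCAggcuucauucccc
A search of the spliced coding sequences of 27444 protein-coding genes for 21-base sites with at most 3 letters outside Watson-Crick pairing found 5 genes. These were *REV*, *PHB*, *PHV* and the other two HD-ZIP III genes, *ATHB8* and *CORONA* (*CNA*). In each gene the site is read across an exon junction, so its genomic span holds an intron. In the sites of the members, the capitals mark the letters outside Watson-Crick pairing with miR165.
REV (chr5:24398787-24398898, plus strand): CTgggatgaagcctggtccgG
PHB (chr2:14642530-14642666, minus strand): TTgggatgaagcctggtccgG
PHV (chr1:10799330-10799445, minus strand): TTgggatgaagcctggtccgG
*PHB* and *PHV* held the same 21 bases, and the best match in the other 6 members left between 8 and 11 letters outside Watson-Crick pairing. The microRNA genes themselves are not among the genes analysed here.

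*AS1* had the highest level of the 9 genes in every group. The gene (AT2G37630, chr2:15781232-15783480 on TAIR10.1) stood at 38.8 FPKM in untreated WT, 39.1 in untreated *idd4*-labelled seedlings, 15.6 in WT after flg22 and 14.7 in *idd4*-labelled seedlings after flg22. In the expressor experiment *AS1* had 36.1 FPKM in WT, 33.4 in *IDD4ox*, 35.6 in *IDD4-AA* and 31.6 in *IDD4-DD*. Within the flg22 experiment, both flg22 values of *AS1* lay below both untreated values. In untreated WT, 91.4% of all genes in the table had a lower level than *AS1*, against 79.9% after flg22. *AS2*, the partner of *AS1* (AT1G65620, chr1:24398143-24400989), was the least expressed member in untreated WT. It had 2.02 FPKM there, 2.71 in untreated *idd4*-labelled seedlings, 0.668 in WT after flg22 and 1.19 in *idd4*-labelled seedlings after flg22. In the second experiment *AS2* stood at 0.753 FPKM in WT, 1.10 in *IDD4ox*, 0.951 in *IDD4-AA* and 1.10 in *IDD4-DD*, so that it reached 1 FPKM in only 5 of the 8 groups.

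Among the adaxial HD-ZIP III members *REV*, *PHB* and *PHV*, *PHB* had the highest level in every group. *PHB* (AT2G34710, chr2:14639323-14644355) had 7.42 FPKM in untreated WT, 8.75 in untreated *idd4*-labelled seedlings, 4.03 in WT after flg22 and 4.33 in *idd4*-labelled seedlings after flg22. Its values in the expressor experiment were 4.74 FPKM in WT, 4.90 in *IDD4ox*, 5.88 in *IDD4-AA* and 5.77 in *IDD4-DD*. Within each experiment the lowest values of *PHB* were thus those of the flg22 groups and of the second WT. *PHV* (AT1G30490, chr1:10796124-10801093), a close relative of *PHB*, stood at 5.81 FPKM in untreated WT, 5.22 in untreated *idd4*-labelled seedlings, 2.30 in WT after flg22 and 2.54 in *idd4*-labelled seedlings after flg22. The second experiment gave *PHV* 4.18 FPKM in WT, 4.13 in *IDD4ox*, 4.04 in *IDD4-AA* and 4.80 in *IDD4-DD*. Within the flg22 experiment, both flg22 values of *PHV* were below both untreated values. *REV* (AT5G60690, chr5:24396981-24402195), which also acts in meristems and vascular tissue, had 3.60 FPKM in untreated WT, 3.46 in untreated *idd4*-labelled seedlings, 1.42 in WT after flg22 and 1.77 in *idd4*-labelled seedlings after flg22. In the second experiment *REV* had 3.42 FPKM in WT, 3.19 in *IDD4ox*, 4.27 in *IDD4-AA* and 3.72 in *IDD4-DD*. *REV* showed the same order, with both flg22 values below both untreated values of the flg22 experiment. The share of all genes with this order was not computed.

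The KANADI genes, which encode GARP-type repressors of adaxial genes, had low levels. *KAN1* (AT5G16560, chr5:5406863-5411766) stood at 3.34 FPKM in untreated WT, 2.86 in untreated *idd4*-labelled seedlings, 1.55 in WT after flg22 and 1.89 in *idd4*-labelled seedlings after flg22. The expressor experiment gave *KAN1* 1.65 FPKM in WT, 1.76 in *IDD4ox*, 1.79 in *IDD4-AA* and 2.13 in *IDD4-DD*. The untreated seedlings of the second experiment thus had *KAN1* values close to those of the flg22 groups in the first, on a separately normalised scale. *KAN2* (AT1G32240, chr1:11625616-11630745) had 2.37 FPKM in untreated WT, 1.72 in untreated *idd4*-labelled seedlings, 0.447 in WT after flg22 and 0.344 in *idd4*-labelled seedlings after flg22. In the second experiment *KAN2* had 1.15 FPKM in WT, 1.99 in *IDD4ox*, 1.92 in *IDD4-AA* and 1.25 in *IDD4-DD*. *KAN2* was the least expressed member after flg22 and reached 1 FPKM in none of the flg22 groups.

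The YABBY genes, which are active in abaxial cells and promote blade growth, followed *AS1* in untreated WT. *YAB3* (AT4G00180, chr4:72545-75576) stood at 12.2 FPKM in untreated WT, 12.9 in untreated *idd4*-labelled seedlings, 10.6 in WT after flg22 and 8.12 in *idd4*-labelled seedlings after flg22. Its values in the second experiment were 6.19 FPKM in WT, 7.70 in *IDD4ox*, 8.24 in *IDD4-AA* and 7.94 in *IDD4-DD*. For *YAB3*, the WT of the second experiment, and not a flg22 group, was the lowest of the 8 groups. *FIL* (AT2G45190, chr2:18628252-18630779, listed as *AFO* in RefSeq) had 8.74 FPKM in untreated WT, 8.04 in untreated *idd4*-labelled seedlings, 5.09 in WT after flg22 and 5.33 in *idd4*-labelled seedlings after flg22. The second experiment gave *FIL* 3.33 FPKM in WT, 3.85 in *IDD4ox*, 2.67 in *IDD4-AA* and 3.56 in *IDD4-DD*, all below the flg22 groups of the first. In untreated WT the order from high to low was *AS1*, *YAB3*, *FIL*, *PHB*, *PHV*, *REV*, *KAN1*, *KAN2* and *AS2*, and with 1 value per group it cannot be said which neighbours differ.

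**Figure D1:**
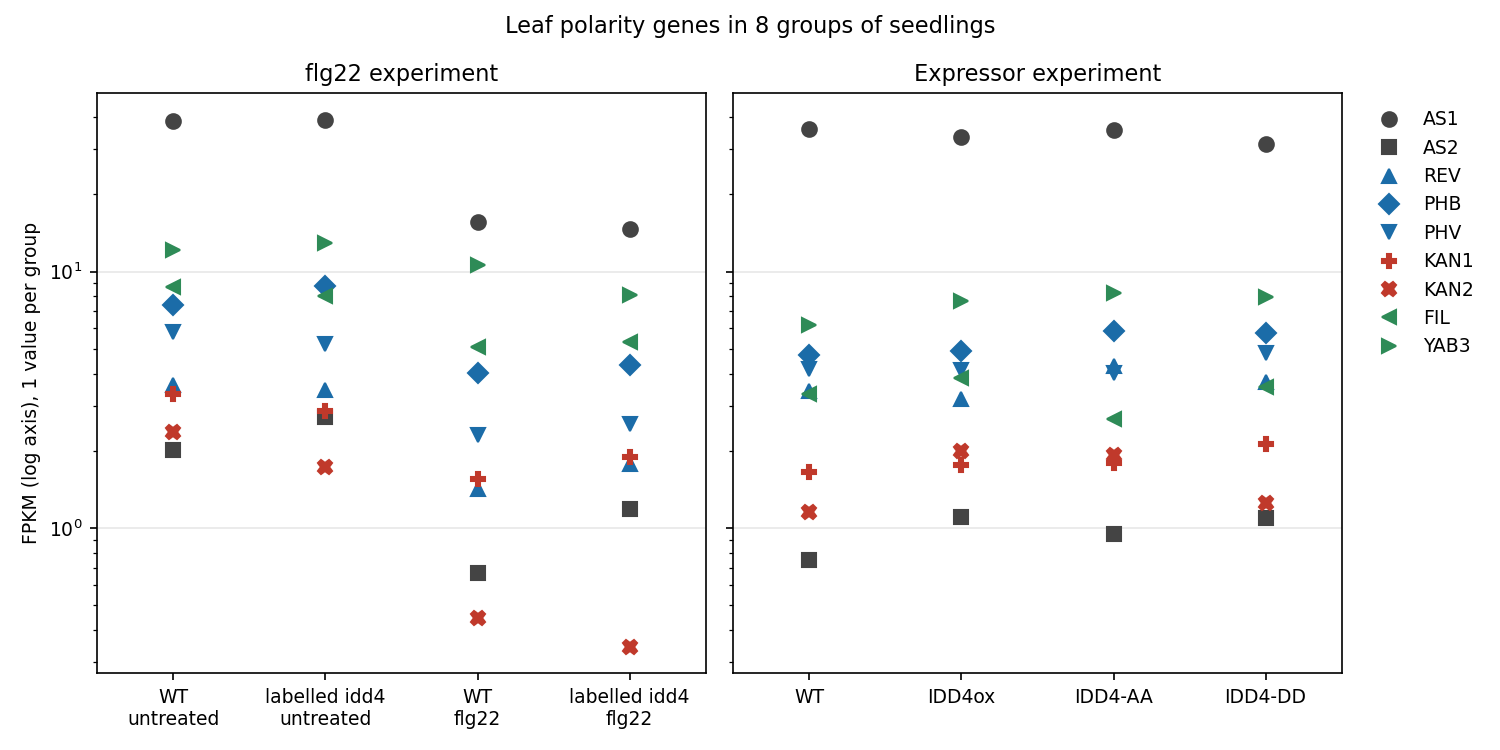
FPKM of the 9 leaf polarity genes on a log axis in the 4 groups of the flg22 experiment (left) and of the expressor experiment (right). Each symbol is the authors' single value for a gene and group; *AS1* lies above all others, from 38.8 to 14.7 FPKM on the left, and *KAN2* lies lowest after flg22, at 0.447 and 0.344 FPKM.

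After 1 h of flg22, all 9 genes were lower than in untreated seedlings of the same genotype label, in WT and in *idd4*-labelled seedlings. In WT, 8 of 9 genes were at least 1.5-fold lower and none was higher. As background, 39.3% of 18540 WT genes were at least 1.5-fold different in either direction and 22.2% were at least 1.5-fold lower. The lower share was 23.2% among the 13214 genes whose untreated level lay within the range of the 9 genes. At 2-fold, 3 of 9 genes (*AS1*, *KAN2* and *PHV*) were lower, against 8.48% of all genes compared. The median change of the 9 genes was -0.86, and that of all genes compared was -0.16.

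*AS1* and *KAN2* showed the largest changes in WT, at -1.26 and -1.22 on the log2(FPKM + 1) scale. Only 4.89% of the genes compared had a more negative change than *AS1*. The plain FPKM of *AS1* was 2.48-fold lower after flg22, while that of *KAN2* was 5.30-fold lower, from a much lower level. The HD-ZIP III genes followed, with *PHV* at -1.04, *REV* at -0.93 and *PHB* at -0.74. *AS2* changed to a similar extent as *REV* (-0.86), although its plain FPKM was 3.02-fold lower. *KAN1* stood at -0.77 and *FIL* at -0.68, which is just past the 1.5-fold mark of 0.58. *YAB3* was the member outside the count, at -0.18, and 48.6% of all genes compared had a more negative change.

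In the group labelled *idd4*, 7 of 9 genes were at least 1.5-fold lower after flg22, and again none was higher. There, 39.8% of the 18558 genes compared were at least 1.5-fold different and 19.4% were at least 1.5-fold lower, or 20.2% of the 13853 genes within the members' untreated range. At 2-fold, 2 of 9 genes (*AS1* and *KAN2*) were lower, against 8.33% of all genes. The median change was -0.76 for the 9 genes and -0.06 for all genes compared. *AS1* again had the largest change (-1.35), followed by *KAN2* (-1.02), *PHB* (-0.87), *PHV* (-0.81) and *AS2* (-0.76). *REV* (-0.69) and *YAB3* (-0.61) were also past the mark, whereas *FIL* (-0.51) and *KAN1* (-0.42) were not. On the plain FPKM scale, *FIL* and *KAN1* were each 1.51-fold lower, so that their place outside the count depends on the added 1. All 9 genes were lower after flg22 in both genotype labels under each of the scalings tried.

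**Figure D2:**
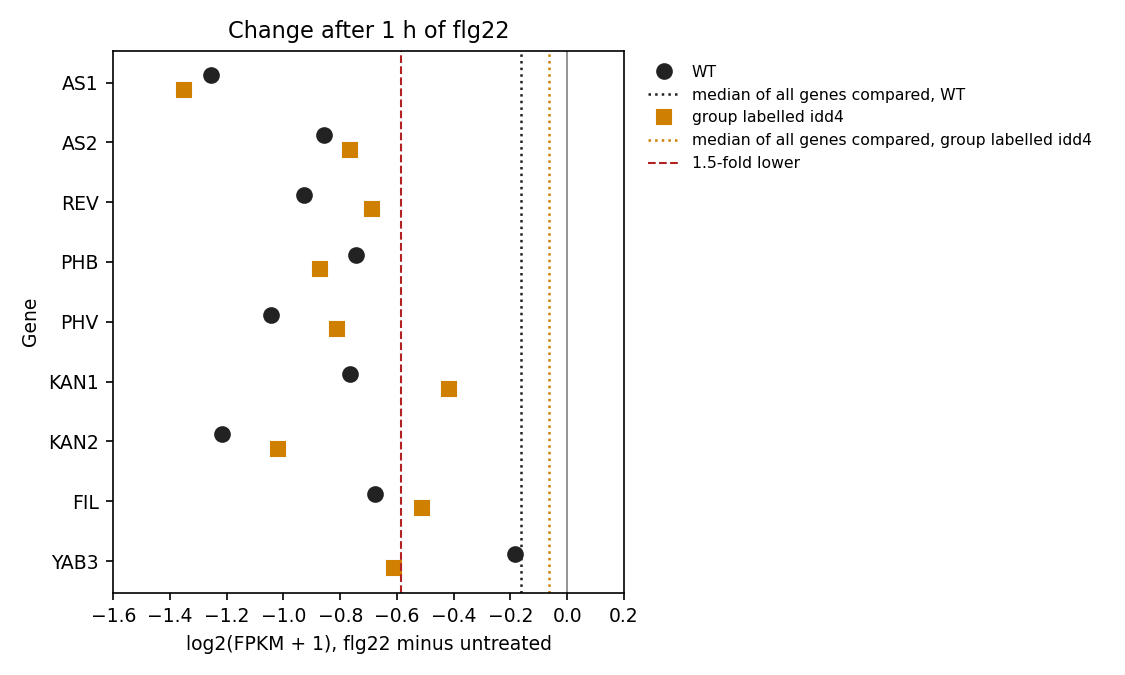
Difference of log2(FPKM + 1) between flg22-treated and untreated seedlings for each gene, in WT (circles) and in the group labelled *idd4* (squares), with the median of all genes compared (dotted) and the 1.5-fold mark (dashed). All 18 points lie below 0, from -1.35 (*AS1*, labelled *idd4*) to -0.18 (*YAB3*, WT).

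**Figure D3:**
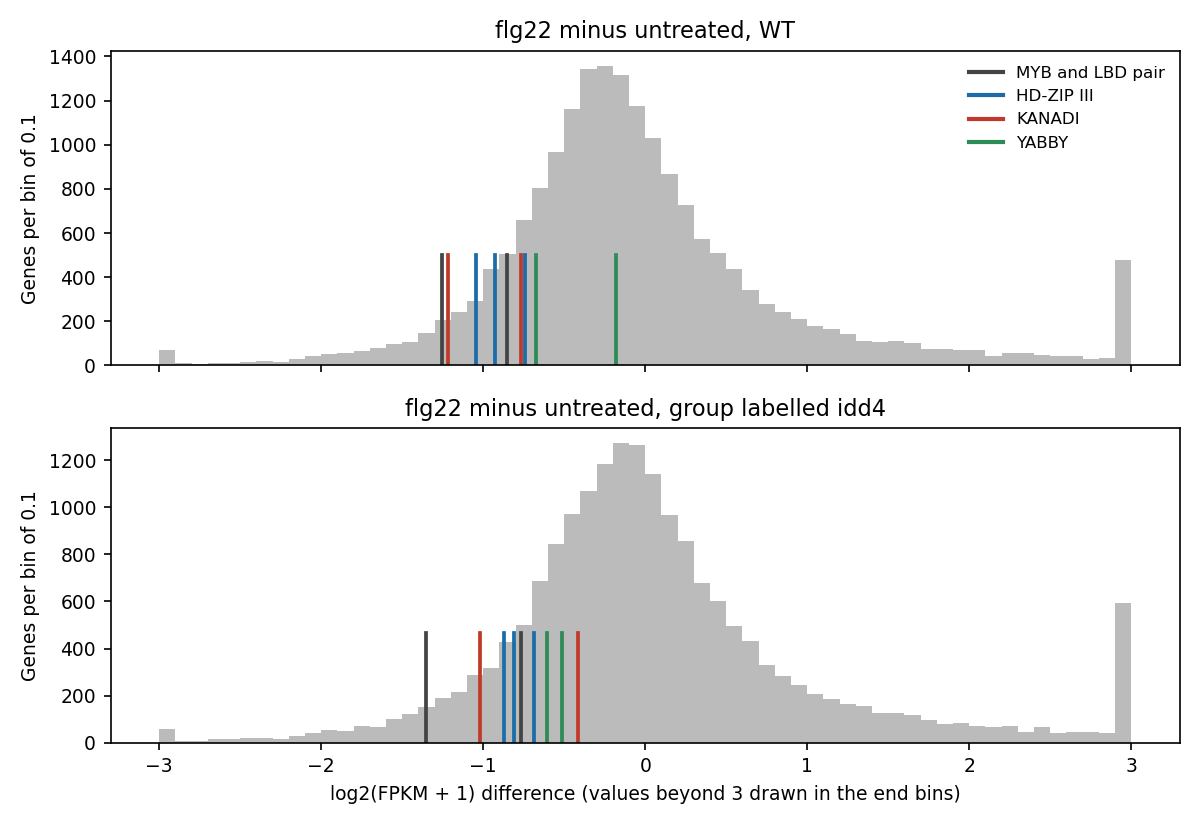
Number of genes per 0.1 bin of the log2(FPKM + 1) difference after flg22 in WT (top) and in the group labelled *idd4* (bottom), over 18540 and 18558 genes; coloured lines mark the 9 genes by family, and their height has no meaning. The 9 genes lie on the lower side of the distribution, apart from *YAB3* in WT, which lies near the median of -0.16.

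The families differed in how much of their summed FPKM was left after flg22. Of the sum of *AS1* and *AS2*, which was 40.8 FPKM in untreated WT, 40.0% was left in WT and 38.0% in *idd4*-labelled seedlings. The HD-ZIP III sum stood at 16.8 FPKM in untreated WT and 7.75 FPKM after flg22, with 46.0% left in WT and 49.6% left in *idd4*-labelled seedlings. For the KANADI sum, 35.0% was left in WT and 48.8% in *idd4*-labelled seedlings, and for the YABBY sum 75.1% and 64.2%. The YABBY genes thus kept the largest share of their level in both genotype labels. The adaxial genes *AS2*, *REV*, *PHB* and *PHV* together had 0.708 times the FPKM of the abaxial genes *KAN1*, *KAN2*, *FIL* and *YAB3* in untreated WT, and 0.476 times after flg22. In *idd4*-labelled seedlings this ratio was 0.789 untreated and 0.626 after flg22. *YAB3* carries much of the abaxial sum, and a sum of FPKM weights genes by their level.

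For the flg22 change, the members with the microRNA site were set beside those without it. The part of the microRNAs was not tested. In WT the 3 genes with the site changed by -0.74 to -1.04, and genes without it lay on both sides of that range, with *AS1* and *KAN2* below and *YAB3* and *FIL* above. The other HD-ZIP III genes, which hold the site too, were lower as well, at -0.44 for *ATHB8* (2.82 to 1.81 FPKM) and -0.43 for *CNA* (8.52 to 6.08 FPKM).

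The group labelled *idd4* was also set beside WT, and whether the polarity genes depend on IDD4 was not tested. In untreated seedlings 4 of the 9 genes were higher and 5 were lower, and none of the 9 was 1.5-fold different, against 3.61% of the 18349 genes compared. The changes ran from -0.31 (*KAN2*) to 0.30 (*AS2*), with *PHB* at 0.21, *YAB3* at 0.08 and *AS1* at 0.01. On the lower side stood *KAN1* at -0.17, *PHV* at -0.13, *FIL* at -0.11 and *REV* at -0.04. The median was -0.04 over the 9 genes and -0.05 over all genes compared. Of the 4 genes that the study named as bound by IDD4, *REV*, *KAN1* and *FIL* were on the lower side and *PHB* on the higher side. These directions depend on the scale: with FPKM rescaled to the sum over nuclear genes, which moved the median of all genes to 0.38, all 9 genes were higher in *idd4*-labelled seedlings, with a median of 0.36.

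After flg22, none of the 9 genes was 1.5-fold different between the genotype labels, against 4.87% of the 17926 genes compared. *AS2* was the highest, at 0.39, and *YAB3* the lowest, at -0.35. In plain FPKM the *AS2* level in *idd4*-labelled seedlings was 1.77 times that in WT (1.19 against 0.668 FPKM), a difference between values near 1 FPKM. *REV* stood at 0.19, *KAN1* at 0.18, *PHV* at 0.10, *PHB* at 0.08 and *FIL* at 0.06, while *AS1* was at -0.08 and *KAN2* at -0.11. The 4 genes named as bound by IDD4 were all on the higher side here, where 60.4% of all genes compared stood. The median was 0.08, beside 0.06 over all genes.

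The difference between the flg22 changes of both genotype labels uses the same 4 values per gene. None of the 9 genes differed by 1.5-fold in this measure, against 9.33% of 18964 genes. It was largest for *YAB3* (-0.43), which was more strongly reduced in *idd4*-labelled seedlings, and for *KAN1* (0.35), which was less reduced there. *REV* (0.24), *PHV* (0.23), *KAN2* (0.20), *FIL* (0.16) and *AS2* (0.09) were also less reduced in *idd4*-labelled seedlings, and *PHB* (-0.13) and *AS1* (-0.09) more. The median over the 9 genes was 0.16 and that over all genes 0.11. With FPKM rescaled to the nuclear sum, all 9 differences were negative, with a median of -0.30 beside -0.38 over all genes, so that the sign depends on the scale while the distance to all genes stayed small.

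**Figure D4:**
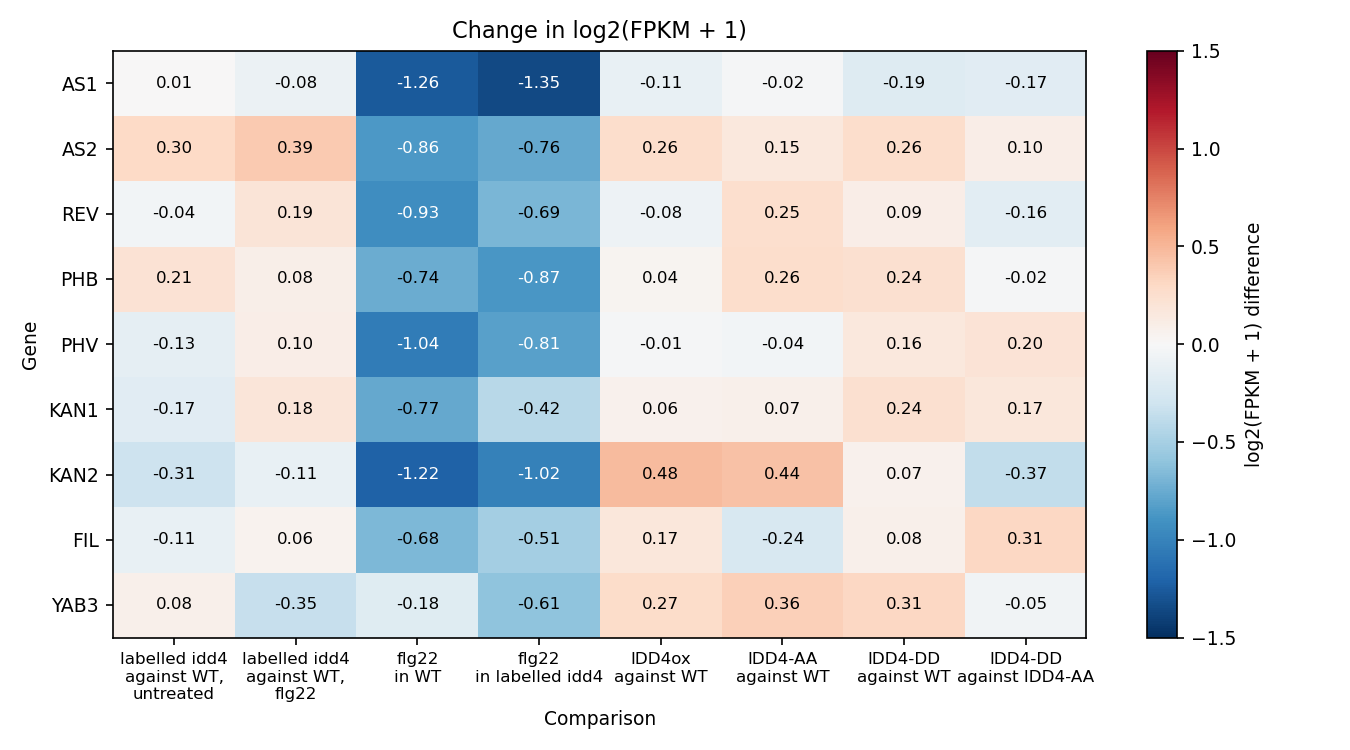
Difference of log2(FPKM + 1) of the 9 genes (rows) in 8 comparisons (columns); red is higher and blue lower in the group named first or after flg22, and the number in each cell is the value. The columns for flg22 hold values from -0.18 to -1.35, and no other column holds a value beyond 0.48 in either direction.

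In the expressor experiment the 3 lines share 1 WT, so their values are set side by side. None of the 9 genes was 1.5-fold different in *IDD4ox* (against 6.43% of 19016 genes compared), in *IDD4-AA* (3.97% of 18859) or in *IDD4-DD* (5.62% of 18955). The FPKM of *IDD4* itself was 21.3-fold, 7.76-fold and 21.5-fold that of WT, and an effect of IDD4 on the polarity genes was not tested. *KAN2* had the largest change of the 9 genes in *IDD4ox* (0.48) and in *IDD4-AA* (0.44), and the smallest in *IDD4-DD* (0.07). In plain FPKM, *KAN2* was 1.73 times WT in *IDD4ox* and 1.67 times WT in *IDD4-AA*, both from a WT level of 1.15 FPKM. *YAB3* was higher than WT in each line, at 0.27, 0.36 and 0.31. *AS2* likewise stood at 0.26, 0.15 and 0.26. *AS1* was lower in each line, at -0.11, -0.02 and -0.19. The scaling to the nuclear sum moved the median of all genes in *IDD4ox* to 0.24. All 9 genes were then higher than WT, *AS1* included, with a median of 0.20.

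The HD-ZIP III genes did not move together in these lines. *PHB* stood at 0.04 in *IDD4ox*, 0.26 in *IDD4-AA* and 0.24 in *IDD4-DD*. *REV* stood at -0.08, 0.25 and 0.09 in the same order, and *PHV* at -0.01, -0.04 and 0.16. Each of these differences is below 1.5-fold and has no replicate check. *KAN1* was at 0.06, 0.07 and 0.24, and *FIL* at 0.17, -0.24 and 0.08. The median of the 9 genes was 0.06 in *IDD4ox*, 0.15 in *IDD4-AA* and 0.16 in *IDD4-DD*, beside 0.07, 0.03 and 0.03 over all genes.

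The phospho-modified lines were also compared with each other, since they differ in the residues at the MPK6 phosphorylation sites. None of the 9 genes was 1.5-fold different, against 4.14% of 18956 genes. *KAN2* was lower in *IDD4-DD* than in *IDD4-AA* (-0.37) and *FIL* was higher (0.31). *PHV* stood at 0.20, *KAN1* at 0.17, *AS2* at 0.10, *PHB* at -0.02, *YAB3* at -0.05, *REV* at -0.16 and *AS1* at -0.17. The median was -0.02, beside -0.01 over all genes. The *IDD4* transcript differs as well: its FPKM in *IDD4-DD*, which includes the line's own *IDD4* gene, was 2.77 times that in *IDD4-AA*. The study, in contrast, reports that both lines were chosen for similar transcript levels and hold equal protein amounts by immunoblot. In these RNA values the residues and the transcript dose cannot be told apart.

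The promoters were searched for the core of the *ID1* motif that IDD proteins bind (AGACAA) and for the core of the W-box bound by WRKY factors of immunity (TTGAC), on both strands and counted separately. In the 500 bases before the annotated gene start, 2 of 9 members held the *ID1* core, against 34.9% of 27443 promoters. These were *PHB* and *FIL*, which are also among the genes the study named, and both hold it as its reverse complement. The matches are shown with 10 bases on either side, read in the direction of the gene, with the core in capitals.
PHB (chr2:14644825-14644850, minus strand): ttctcctttaTTGTCTttcccctttt
FIL (chr2:18631082-18631107, minus strand): taaatagttaTTGTCTtattaaacac
The match lay 485 bases before the start of *PHB* and 318 bases before that of *FIL*. In the window from 250 bases before to 50 after the start, only *KAN1* held the core, against 23.6% of promoters. The W-box core stood in the 500-base window of *AS1*, *PHV* and *KAN1*, 3 of 9 members, against 67.4% of promoters, and in the shorter window of *AS1* alone, against 50.5%. Between the *idd4* label and WT, *PHB* stood at 0.21 untreated and 0.08 after flg22, and *FIL* at -0.11 and 0.06. Untreated, 88.5% of all genes compared had a lower change than *PHB* and 39.3% a lower change than *FIL*. After flg22 these shares were 54.0% and 49.1%. A link between the motif and these values was not tested. A match of this length is a description of the letters and no evidence of binding.

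Other genes of the polarity pathway, 40 of 42 listed, were called lower after flg22 in a share near that of all genes. In WT, 30 of the 32 genes above the 1 FPKM limit were lower, 8 of them at least 1.5-fold, and none was 1.5-fold higher, with a median of -0.42. Over all genes compared in WT, 60.9% were lower and 22.2% at least 1.5-fold lower. In *idd4*-labelled seedlings, 24 of 32 were lower, with 8 at least 1.5-fold lower and 2 at least 1.5-fold higher, and a median of -0.37, against 54.3% lower and 19.4% at least 1.5-fold lower over all genes. Among them, *ZPR1*, a little zipper protein that inhibits HD-ZIP III proteins and is itself activated by them, had 8.58 FPKM in untreated WT and 4.37 after flg22. In *idd4*-labelled seedlings, *ARF4*, an abaxial auxin response factor, had 6.70 FPKM before and 3.12 after flg22, whereas *ARF2*, a repressor of organ growth, had 35.7 before and 57.8 after. The HD-ZIP II gene *ATHB2* also had a higher value, at 3.20 FPKM before and 5.62 after. *KNAT1*, a KNOX gene that AS1 and AS2 silence in leaves, was at 5.09 FPKM before and 1.84 after flg22 in *idd4*-labelled seedlings, so it was lower together with *AS1* and *AS2*. *ANT*, which promotes organ growth, had 10.3 and 4.11 FPKM there, and *GIF1*, a coactivator of leaf cell proliferation, had 8.37 FPKM in untreated WT and 4.28 after flg22.

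Markers of dividing cells were lower after flg22 as well. Of the 10 listed, all 8 above the limit were lower in WT, 6 of them at least 1.5-fold (22.2% of all genes), with a median of -0.86, the same as that of the polarity genes to 2 decimals. In *idd4*-labelled seedlings, 8 of 8 were lower, 5 at least 1.5-fold (19.4% of all genes), with a median of -0.80. *PCNA1*, the sliding clamp of DNA replication, had 8.52 FPKM in untreated WT and 1.83 after flg22, the cytokinesis syntaxin *KNOLLE* had 32.6 and 13.3, and *CYCD3;1*, a D-type cyclin, had 17.7 and 8.61. The shoot meristem gene *WUS* was listed at 0 in all 8 groups, and *CLV3* in 7 of 8, while *CLV1* stood between 16.1 and 24.8 FPKM. Roots were part of the sample: the root endodermis regulators *SCR* and *SHR* had 26.6 and 15.8 FPKM in untreated *idd4*-labelled seedlings and 10.01 and 9.54 after flg22. Root markers did not move one way: of 6 above the limit, 4 were lower and 2 higher after flg22 in WT, and 3 were lower and 3 higher in *idd4*-labelled seedlings. *CASP1*, an endodermal membrane protein, was on the higher side after flg22 (0.54 in WT, 0.26 in *idd4*-labelled seedlings), as was the root epidermis gene *GL2* (0.34 and 0.51). In the second experiment *CASP1* had 66.2 FPKM in WT and 37.4 in *IDD4-DD*. *PXY*, a receptor of vascular stem cells, had 13.1 FPKM in untreated *idd4*-labelled seedlings and 6.87 after flg22. Of the xylem and vascular markers above the limit, 4 of 5 were lower after flg22 in WT and 1 was higher. In *idd4*-labelled seedlings 5 of 6 were lower and 1 was higher. Over all genes, 60.9% and 54.3% were lower. The medians of these markers were -0.13 and -0.46, beside -0.16 and -0.06 over all genes. The part of cell division and of tissue shares in the values of the polarity genes was not tested.

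**Figure D5:**
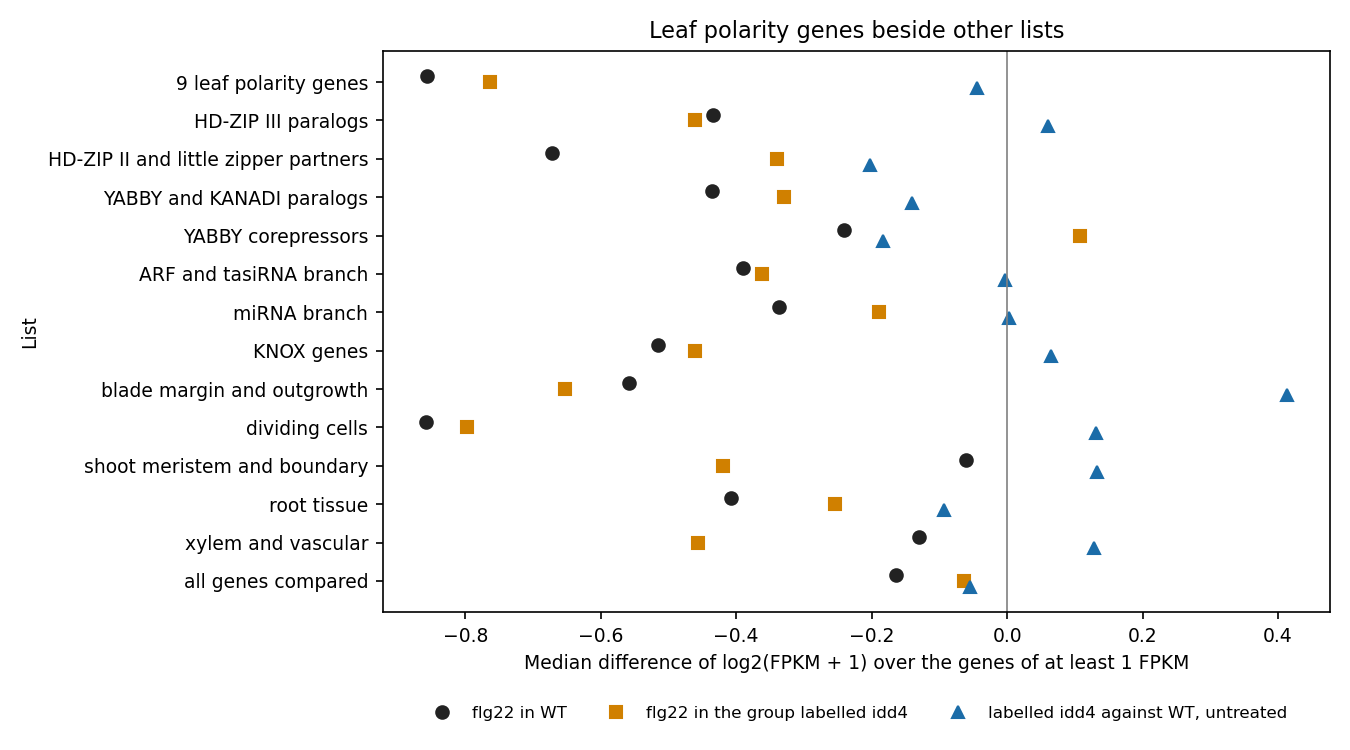
Median difference of log2(FPKM + 1) of the 9 leaf polarity genes, of the listed gene groups and of all genes compared, for flg22 in WT (circles), flg22 in the group labelled *idd4* (squares) and the untreated *idd4* label against WT (triangles). The polarity genes (-0.86 and -0.76) and the markers of dividing cells (-0.86 and -0.80) lie lowest after flg22, and all genes compared lie at -0.16 and -0.06.

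The profile of the 9 genes was also compared with that of other genes, over 6 changes against the WT of the same experiment (the untreated *idd4* label, both flg22 groups and the 3 expressor lines). The median profile of the members was -0.04, -0.86, -0.66, 0.06, 0.15 and 0.16 in that order. Of 8782 nuclear genes with at least 5 FPKM in every group, those with the smallest root mean square difference from it were AT3G53100 (0.056), AT3G54760 (0.069), *NSN1* (0.071), *PNM1* (0.076) and *MSL6* (0.081). *NSN1*, which encodes a nucleolar GTPase, had 16.4 FPKM in untreated WT and 8.40 after flg22, and *MSL6*, of the mechanosensitive channel family, had 11.3 and 5.79. Among the members, the most alike pairs were *AS2* and *PHB* (0.141), *REV* and *KAN1* (0.151) and *REV* and *PHB* (0.152). Of these, only *REV* and *PHB* belong to the same family, and *REV* and *PHV* differed by 0.164. *FIL* and *YAB3*, which are paralogs, differed by 0.345.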

How the data were processed

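RNA of 8 groups was analysed; chromatin immunoprecipitation samples were not analysed here. By the study's methods, Trimmomatic cleaned the 101-base paired reads, TopHat placed them on TAIR10 (at most 2 mismatches) and Cufflinks gave the values that the authors deposited as FPKM, 1 per gene and group. The headings IDD4 and IDD4_flg22 were read as the *idd4* groups. Depth is unknown, and no interval or test could be had.

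Identifiers were sorted beside the values. The sorted order gave values equal (relative tolerance 0.001) to a table of the study for 1997 of 1997 genes, against 499 as deposited. Names of 26703 identifiers were matched to RefSeq (TAIR10.1), whose genome gave all coordinates and sequences.

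Changes are differences of log2(FPKM + 1), computed with Python 3.11.15, numpy 2.4.6 and pandas 2.3.3. The code was checked on simulated data with set changes and no noise, which says nothing about the reliability of the values. The members and the 12 lists (72 genes, 70 found) were chosen with earlier results of these data known. Named genes were the members, *IDD4*, *IDD5*, up to 3 genes per list with the largest change among those at least 1.5-fold different and of at least 5 FPKM, and the 5 genes most like the members' median. *ATHB8*, *CNA*, *WUS*, *CLV3*, *CLV1*, *GL2* and the further genes of the closing section were named after their values were seen. Alternatives were other pseudocounts, scalings, a level limit, a 2-fold threshold and the order of identifiers.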

Additional observations from a re-analysis of the deposited data

How the results depend on the processing

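Of 54 alternatives for the medians of the 9 genes, 35 stayed within 0.1 (log2) of the value given and 19 did not. In all, 9 had the other sign, 5 of them for values within 0.1 of 0; of 54 for the counts of genes at least 1.5-fold different, 40 stayed within 1.5 times and 14 did not. The flg22 median in WT was -1.28 with 0.1 FPKM added, -1.31 with nothing added and -0.74 over the 5 members of at least 5 FPKM. In *idd4*-labelled seedlings it was -0.998 with 0.1 FPKM added, -1.02 with nothing added, -1.09 on the nuclear sum and -1.13 on the nuclear sum without the ribosomal RNA genes of chromosome 2, a scaling chosen after seeing the data. The 2-fold threshold left 3 genes in WT and 2 in *idd4*-labelled seedlings. Between the *idd4* label and WT untreated, the nuclear sum gave a median of 0.36 with 2 genes past 1.5-fold, and the sum without ribosomal RNA 0.42 with 3 genes. Between the *idd4* label and WT after flg22, the median was -0.083 over the 3 members of at least 5 FPKM, and 1 gene (*AS2*) passed with 0.1 FPKM or nothing added. The difference of the flg22 changes turned to -0.30 and -0.29 on both nuclear sums, with 3 genes past 1.5-fold on each, and to -0.094 over the 5 members of at least 5 FPKM. In *IDD4ox* the nuclear sum gave a median of 0.20, beside 0.24 over all genes, and 1 gene passed on it and with 0.1 FPKM or nothing added. In *IDD4-AA* the median was 0.30 with 0.1 FPKM, 0.31 with nothing added and 0.26 over the 3 members of at least 5 FPKM, with 1 gene (*KAN2*) past 1.5-fold in the first 2 of these settings. In *IDD4-DD* the median turned to -0.055 on the nuclear sum, beside -0.20 over all genes. For *IDD4-DD* against *IDD4-AA* it was -0.22 on the nuclear sum, beside -0.21 over all genes, and 1 gene (*KAN2*) passed with nothing added. Beyond the construction of each setting, the cause was not tested.

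The nuclear sum moved the median of all genes between the *idd4* label and WT untreated from -0.05 to 0.38, and the members then lay at -0.02 from it. The locus AT2G01021 of the ribosomal RNA cluster on chromosome 2 held between 10.1% and 34.0% of the summed FPKM of a group. With identifiers as deposited, the median untreated WT level of the 9 genes would be 4.97 FPKM in place of 5.81. Replicates could not be left out, since the values are combined. No paired analysis was possible because the columns hold 1 value per group and carry no replicate numbers. Genes near 1 FPKM (*AS2*, *KAN2*) are the least certain.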

Other observations

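The genes of blade margin and outgrowth had higher values in untreated *idd4*-labelled seedlings than in WT. All 6 that passed the 1 FPKM limit, of 7 listed, were higher there, 2 of them at least 1.5-fold, with a median of 0.41 beside -0.05 over all genes. Of all genes compared, 39.2% were higher and 3.61% at least 1.5-fold different in either direction. *GRF5*, a growth-regulating factor that promotes leaf cell proliferation, had 0.716 FPKM in WT and 2.52 in *idd4*-labelled seedlings. *KLU*, a cytochrome P450 that prolongs organ growth, had 1.60 and 3.58 FPKM, *ANT* 7.44 and 10.3 FPKM, and *GIF1* 8.37 and 11.1 FPKM. After flg22 the same 6 genes were higher in *idd4*-labelled seedlings, none of them 1.5-fold, with a median of 0.44, where 60.4% of all genes were higher. In *IDD4ox*, 3 of the 4 genes above the limit were higher than WT, 2 of them at least 1.5-fold, with a median of 0.51. There 61.9% of all genes were higher and 6.43% at least 1.5-fold different in either direction, with a median of 0.07. *KLU* was lower there (1.37 FPKM in WT and 0.897 in *IDD4ox*). In *IDD4-AA* 3 of 3 and in *IDD4-DD* 4 of 4 were higher, against 55.0% and 54.7% of all genes. *KLU* stood at 0.76 and 0.32 in these lines, so higher values were not limited to the *idd4* label. These differences have no replicate check, and the list was chosen with earlier results of these data known.

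The WT values of both experiments, from tables normalised separately, were higher in the first for all 9 genes, by differing amounts. The FPKM summed over all genes was also higher in the first WT, at 1.60e+06 against 822885. The share of all genes that were higher there was not computed. *YAB3* had 12.2 FPKM in the first untreated WT and 6.19 in the second, *FIL* 8.74 and 3.33, *KAN1* 3.34 and 1.65, *KAN2* 2.37 and 1.15, and *AS2* 2.02 and 0.753. *PHB* had 7.42 and 4.74 FPKM and *PHV* 5.81 and 4.18. *AS1* (38.8 and 36.1 FPKM) and *REV* (3.60 and 3.42 FPKM) were closer. The ratio of adaxial to abaxial sums was 0.708 in the first WT and 1.06 in the second, a wider gap than that between any lines within the second experiment (0.870 to 1.06).

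*IDD5*, another gene of the IDD family, was lower after flg22 like the polarity genes, at -1.58 in WT and -1.40 in *idd4*-labelled seedlings. It was below WT in *IDD4ox* (-0.58) and *IDD4-DD* (-0.44), both short of 1.5-fold on the log2(FPKM + 1) scale. In plain FPKM it was 1.52-fold lower in *IDD4ox*, so that its place short of the mark depends on the added 1.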
